A study of Mus musculus with 4 samples.

Results

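The cyclin-dependent kinase inhibitor genes were followed across 4 Affymetrix whole-transcript arrays of mouse colony-forming cells. The members were the 8 genes Cdkn1a, Cdkn1b, Cdkn1c, Cdkn2a, Cdkn2b, Cdkn2c, Cdkn2d and Cdkn3, chosen by symbol through the platform annotation. Of these, 7 had a probe set of their own, among 19938 genes with such a probe set, and Cdkn1a had none, because its probe set is annotated to a second gene as well. The 4 groups, with 1 array each, were colonies from long-term haematopoietic stem cells transduced with CreER (LT-HSC CreER), from LT-HSCs transduced with mock (LT-HSC mock), from short-term haematopoietic stem cells transduced with CreER (ST-HSC CreER) and from ST-HSCs transduced with mock (ST-HSC mock). All groups shared the C57BL/6 background and grew in methylcellulose with stem cell factor, IL-3, IL-6 and GM-CSF. CreER is a Cre recombinase joined to a domain of the oestrogen receptor. The title of the series names MLL-ENL, a leukaemia fusion, expressed conditionally. The sources used here do not give whether CreER was activated, which allele it acted on, whether mock cells carried that allele, or how many animals or colonies were pooled per array. The labels name a search for genes that take part in leukaemic transformation as the purpose. The design sets CreER against mock within each population, and cells derived from LT-HSCs against cells derived from ST-HSCs within each transduction.

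Cyclin-dependent kinases drive the cell cycle when bound to cyclins, and their inhibitors hold them back. The INK4 proteins, encoded by Cdkn2a (p16Ink4a), Cdkn2b (p15Ink4b), Cdkn2c (p18Ink4c) and Cdkn2d (p19Ink4d), bind CDK4 and CDK6, whereas the CIP/KIP proteins, encoded by Cdkn1a (p21), Cdkn1b (p27) and Cdkn1c (p57), bind cyclin-CDK complexes more broadly. Cdkn2a also encodes p19Arf, which stabilises p53 by restraining MDM2, and Cdkn3 encodes a phosphatase that removes an activating phosphate from CDK proteins. In blood formation p57, p27 and p18 are known for their part in the quiescence and self-renewal of stem cells, and the Cdkn2a and Cdkn2b genes, neighbours on chromosome 4, are repressed by Polycomb proteins.

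The promoters of the 4 members with the largest differences between LT-HSC-derived and ST-HSC-derived cells past the signal floor are shown because the differences of these members ran in opposite directions. Each is a RefSeq window of 300 bases on GRCm38.p6, from 250 bases before to 50 bases after an annotated start, written 5′ to 3′ on the gene's strand. Capitals mark GC boxes (GGGCGG) and CCAAT boxes (CCAAT) found on either strand. Cdkn2b lies on the minus strand at chr4:89310983-89311282, Cdkn2c on the minus strand at chr4:109666707-109667006 (the upstream of its 2 annotated starts), Cdkn1b on the plus strand at chr6:134920151-134920450 and Cdkn3 on the plus strand at chr14:46760291-46760590.
Cdkn2b: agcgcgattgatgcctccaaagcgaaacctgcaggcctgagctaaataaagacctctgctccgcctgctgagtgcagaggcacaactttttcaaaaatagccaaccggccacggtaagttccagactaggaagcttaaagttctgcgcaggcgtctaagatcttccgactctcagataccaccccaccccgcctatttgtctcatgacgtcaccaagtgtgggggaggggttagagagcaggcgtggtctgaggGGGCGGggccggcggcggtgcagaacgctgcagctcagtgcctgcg
Cdkn2c: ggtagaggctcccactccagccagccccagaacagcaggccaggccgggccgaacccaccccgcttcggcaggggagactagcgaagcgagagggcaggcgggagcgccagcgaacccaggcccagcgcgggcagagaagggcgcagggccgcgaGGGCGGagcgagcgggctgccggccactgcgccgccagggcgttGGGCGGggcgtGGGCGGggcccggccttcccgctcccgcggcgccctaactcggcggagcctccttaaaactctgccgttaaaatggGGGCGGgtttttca
Cdkn1b: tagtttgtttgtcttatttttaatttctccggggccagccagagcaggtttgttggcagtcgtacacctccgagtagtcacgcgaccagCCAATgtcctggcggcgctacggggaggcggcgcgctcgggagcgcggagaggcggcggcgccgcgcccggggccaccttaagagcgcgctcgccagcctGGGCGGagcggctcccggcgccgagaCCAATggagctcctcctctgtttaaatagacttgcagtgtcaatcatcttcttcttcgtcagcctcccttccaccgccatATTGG
Cdkn3: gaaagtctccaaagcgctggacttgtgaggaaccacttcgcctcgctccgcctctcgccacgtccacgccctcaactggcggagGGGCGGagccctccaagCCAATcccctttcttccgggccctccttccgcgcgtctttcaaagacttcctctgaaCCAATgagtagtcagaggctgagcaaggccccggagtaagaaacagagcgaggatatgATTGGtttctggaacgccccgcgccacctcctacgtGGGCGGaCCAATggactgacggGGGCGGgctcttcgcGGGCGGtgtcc

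The GC box occurred 1 time in the Cdkn2b window, 4 times in that of Cdkn2c, 1 time in that of Cdkn1b and 4 times in that of Cdkn3. Of all 32851 promoter windows in the table, 35.66% held it. The CCAAT box, held by 37.41% of windows, occurred 4 times in the Cdkn3 window and 3 times in that of Cdkn1b, with 0 matches in those of Cdkn2b and Cdkn2c. For Cdkn2c these counts depend on the start chosen. The window at its downstream start, not printed, held 0 GC boxes and 1 CCAAT box. The CHR motif TTTGAA, known from promoters of genes expressed late in the cell cycle, occurred 1 time each in the windows of Cdkn3 and Cdkn2b and was held by 17.89% of all windows. An E2F motif, searched as TTTCCCGC, TTTCGCGC or TTTGGCGC on both strands and held by 1.84% of windows, occurred 1 time at the upstream start of Cdkn2a and in none of the 4 windows printed. No motif searched contains another, and matches of different motifs were counted separately. Windows were found for 7 members, and Cdkn1c had no entry. A match is a string of letters in a window and not a measured binding site.

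Levels are the deposited log2 values per probe set, with array medians of 7.75 to 7.82. A gene was held to be above the signal floor on an array when it exceeded the median of all probe sets with 1 symbol on that array, a floor of 8.07 to 8.13. Pairwise differences rest on 1 array a group, so they have neither a replicate check nor a p-value, and the small number of arrays limits their precision. The transcripts came from mixed colonies, so fewer cells of a type and less RNA per cell cannot be told apart. As a check on cell identity, all 11 neutrophil markers were above the floor on every array, and so were 8 or 9 of 9 myeloid progenitor and primary granule markers, whereas 0 of 5 T and NK cell markers and 1 of 4 B cell markers were. Of 7 fibroblast and stromal markers, however, 4 were above the floor on LT-HSC CreER and 3 on each other array. A level just above the floor therefore does not by itself show a cell type.

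The INK4 genes differed in opposite directions between the populations. Cdkn2b, whose protein p15 mediates growth arrest by TGF-beta, had log2 levels of 8.37 on LT-HSC CreER and 8.56 on LT-HSC mock, against 7.80 on ST-HSC CreER and 7.83 on ST-HSC mock. The LT-HSC arrays did not overlap the ST-HSC arrays, and the ST-HSC arrays were under the signal floor. The difference between LT-HSC-derived and ST-HSC-derived cells was 0.73 with mock, or 1.66-fold, and 0.57 with CreER, or 1.49-fold, and its size is uncertain because it is taken against values under the floor. Of the genes past the floor, 5.30% differed at least as much as Cdkn2b with mock and 7.14% with CreER.

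Cdkn2a had log2 levels of 8.09 on LT-HSC CreER and 7.81 on LT-HSC mock, against 7.45 on both ST-HSC CreER and ST-HSC mock. It was thus also higher in LT-HSC-derived cells, by 0.64 with CreER and by 0.36 with mock, but it stayed under the floor on all 4 arrays, so the size of these differences is uncertain. Among genes under the floor on both arrays compared, 1.304% differed at least as much in size as Cdkn2a with CreER and 6.64% with mock. On LT-HSC CreER, Cdkn2a was just under the floor of 8.13. These shares cannot be set against those of Cdkn2b, which were taken among genes past the floor. The annotation of the Cdkn2a probe set lists transcripts of both products, so p16Ink4a and p19Arf cannot be told apart here.

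Cdkn2c, the p18 gene, ran the other way, with log2 levels of 8.79 on LT-HSC CreER and 8.57 on LT-HSC mock, against 9.32 on ST-HSC CreER and 9.06 on ST-HSC mock. Both LT-HSC arrays lay below both ST-HSC arrays, by 0.53 with CreER and 0.49 with mock. Within each population the CreER array was the higher, by 0.22 for LT-HSC and 0.26 for ST-HSC. All 4 levels were above the floor.

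Cdkn2d, the remaining INK4 gene, had CreER arrays that both exceeded both mock arrays. Its log2 levels were 10.03 on LT-HSC CreER and 9.78 on LT-HSC mock, and 10.12 on ST-HSC CreER and 9.86 on ST-HSC mock. The differences between CreER and mock were 0.25 for LT-HSC and 0.26 for ST-HSC, or 1.19-fold and 1.20-fold. Between the populations Cdkn2d differed by -0.09 with CreER and by -0.08 with mock, and the arrays of the populations overlapped.

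**Figure D1:**
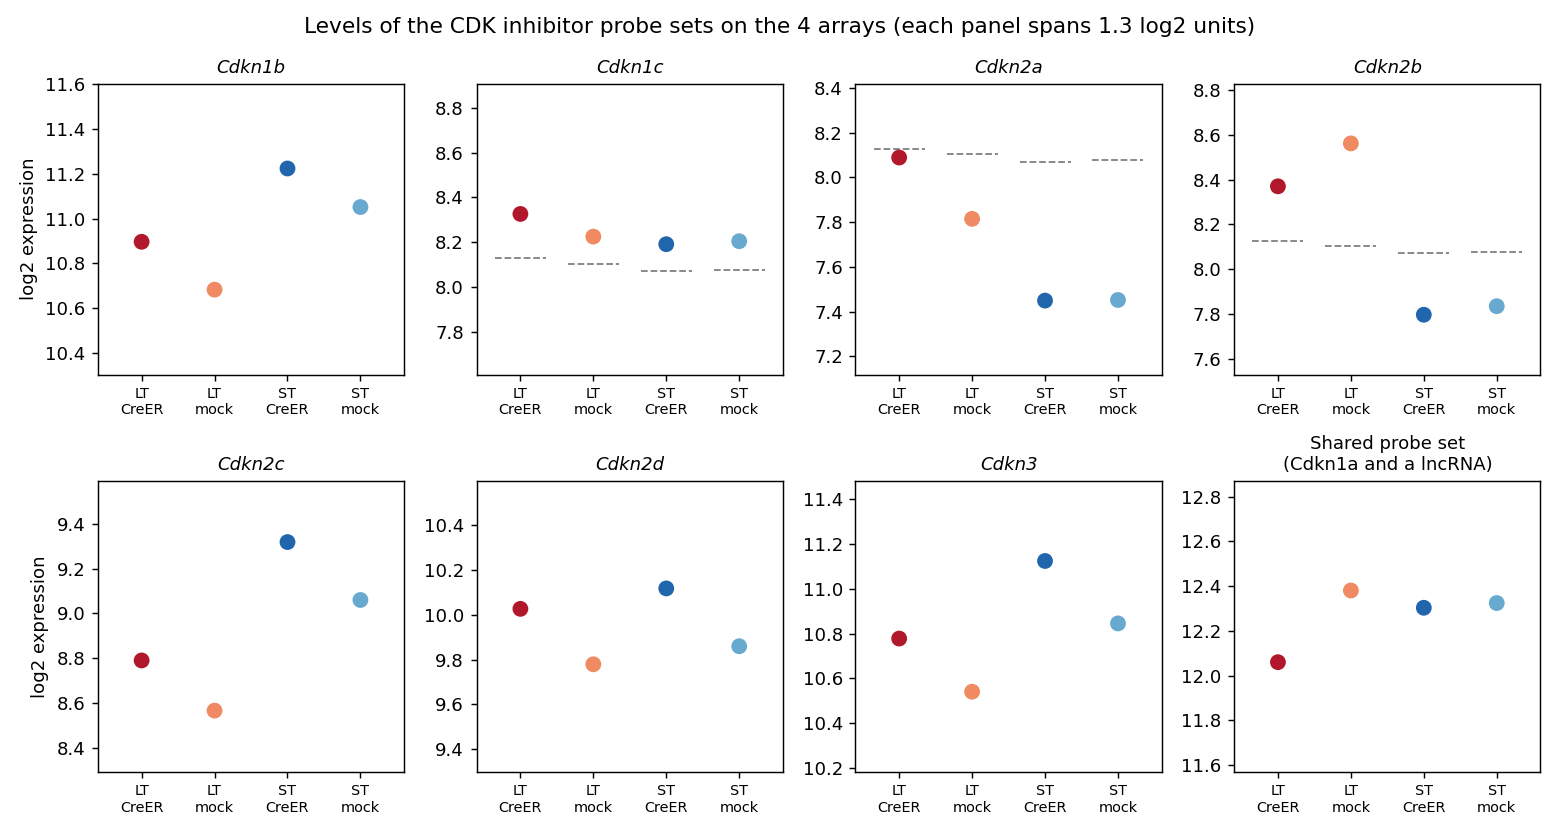
Log2 expression (y axis, 1.3 log2 units per panel) of the 7 genes with a probe set of their own and of the probe set shared by Cdkn1a and a lncRNA gene, on the 4 arrays (x axis, 1 point per array); dashed lines mark each array's signal floor where it falls within the panel. Cdkn2a and Cdkn2b sit higher on the LT-HSC arrays, whereas Cdkn1b, Cdkn2c and Cdkn3 sit higher on the ST-HSC arrays.

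Among the CIP/KIP genes, Cdkn1b was lower in LT-HSC-derived cells. The p27 gene had log2 levels of 10.90 on LT-HSC CreER and 10.68 on LT-HSC mock, against 11.22 on ST-HSC CreER and 11.05 on ST-HSC mock, so the populations did not overlap. The difference was -0.33 with CreER and -0.37 with mock. A second Cdkn1b probe set gave 8.96 on LT-HSC CreER and 8.72 on LT-HSC mock, against 9.54 on ST-HSC CreER and 9.34 on ST-HSC mock. It ran in the same direction with larger differences, of -0.59 with CreER and -0.62 with mock. The CreER arrays were higher than the mock arrays of the same population on both probe sets, by 0.17 to 0.24.

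Cdkn1c, the imprinted p57 gene, varied least of the 7 genes. Its log2 levels were 8.33 on LT-HSC CreER and 8.22 on LT-HSC mock, and 8.19 on ST-HSC CreER and 8.20 on ST-HSC mock. All 4 were just above the floor and within 0.14 of each other. The largest of its pairwise differences, 0.14 between LT-HSC-derived and ST-HSC-derived cells with CreER, was reached or exceeded in size by 57.5% of genes past the floor.

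The probe set annotated to both Cdkn1a and the lncRNA gene 4930567H12Rik cannot be assigned to p21. Its log2 levels were 12.06 on LT-HSC CreER and 12.38 on LT-HSC mock, and 12.30 on ST-HSC CreER and 12.32 on ST-HSC mock. The LT-HSC CreER array stood lowest, 0.32 below LT-HSC mock and 0.24 below ST-HSC CreER, while the other 3 arrays lay between 12.30 and 12.38.

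Cdkn3, the CDK-associated phosphatase gene, shared the direction of Cdkn1b and Cdkn2c. Its log2 levels were 10.78 on LT-HSC CreER and 10.54 on LT-HSC mock, against 11.12 on ST-HSC CreER and 10.85 on ST-HSC mock. LT-HSC-derived cells were lower by 0.35 with CreER and by 0.31 with mock, without overlap. CreER arrays were higher than mock arrays, by 0.24 for LT-HSC and by 0.28 for ST-HSC. On LT-HSC CreER, however, Cdkn3 stayed below its level on ST-HSC mock.

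No member reached a 2-fold difference in any of the 4 comparisons. That size rule, with a level above the floor on the higher array, was met by 0.875% of genes for CreER against mock among LT-HSC-derived cells and by 0.518% among ST-HSC-derived cells. It was met by 3.12% for LT-HSC against ST-HSC with mock and by 1.94% with CreER. At 1.5-fold, Cdkn2b was the member counted for LT-HSC against ST-HSC with mock, where 8.08% of genes were counted. That rests on the probe set taken for each gene, since the second Cdkn1b probe set, above the floor on all 4 arrays, differed by 1.54-fold in the same comparison, lower in LT-HSC-derived cells. Cdkn2a passed 1.5-fold with CreER but not the floor. For CreER against mock the members past the floor had a median of 0.22 in LT-HSC-derived cells, with 5 of 6 above 0, and of 0.26 in ST-HSC-derived cells, with 4 of 5 above 0. All genes past the floor had medians of -0.03 in each, with 44.4% and 42.6% above 0. For LT-HSC against ST-HSC the members past the floor had a median of -0.21 with CreER and -0.19 with mock, each with 4 of 6 below 0, beside -0.02 and -0.03 over all genes past the floor. The plot of differences by comparison shows that the CreER differences lay inside the central range of all genes, and that Cdkn2b and Cdkn2c lay outside it in the population comparisons.

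**Figure D2:**
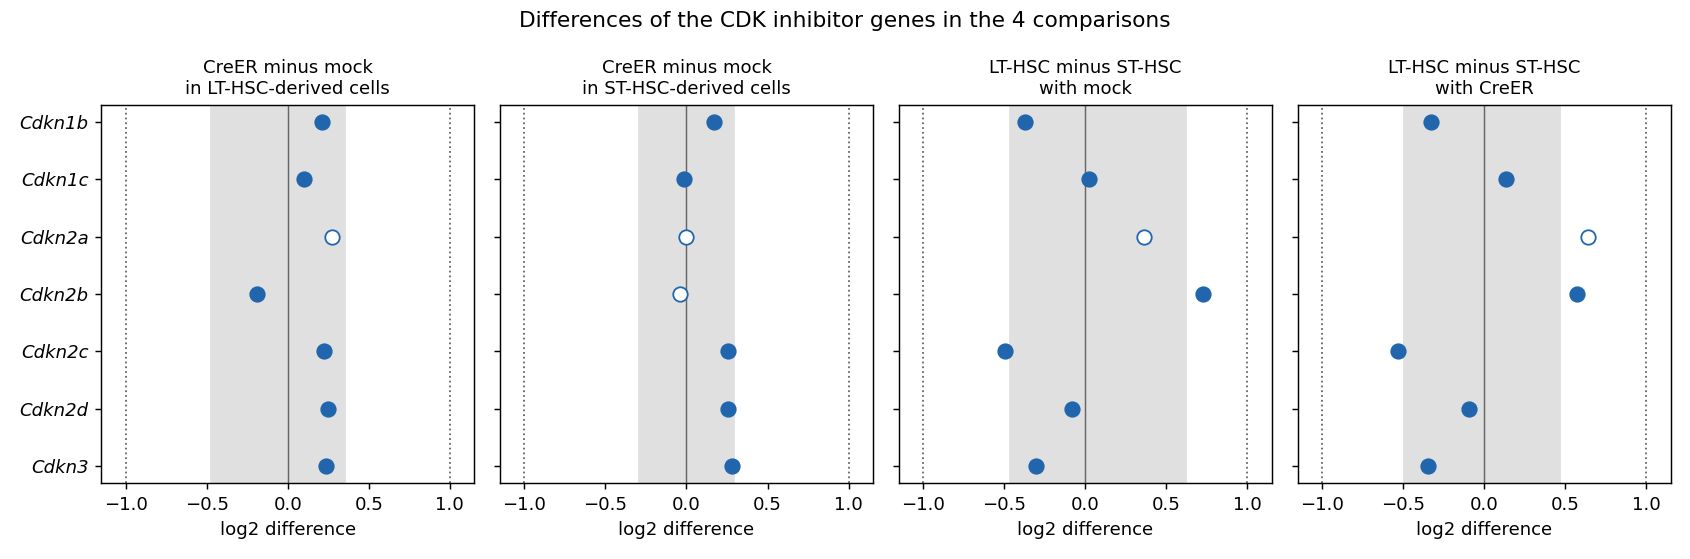
Log2 difference (x axis) of each of the 7 genes (y axis) in the 4 comparisons; filled points are past the signal floor on at least 1 of the 2 arrays, open points are under it on both, grey bands span the 5th to the 95th percentile of all genes past the floor, and dotted lines mark 2-fold. No point reaches a dotted line, and Cdkn2b lies right of the band in both LT-HSC minus ST-HSC panels.

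The arrays of the populations did not overlap for 6 of the 7 genes, or for 5 of the 6 past the floor. Cdkn1c, Cdkn2a and Cdkn2b were higher on both LT-HSC arrays, and Cdkn1b, Cdkn2c and Cdkn3 were lower. The order of Cdkn1c is lost when each array is centred on its median, where its LT-HSC minus ST-HSC difference with mock is -0.01. Of the 10411 genes that passed the floor on 1 array or more, 54.9% likewise did not overlap, 24.6% higher and 30.2% lower, so non-overlap of the populations was common. Between CreER and mock arrays, Cdkn2d was the member without overlap, where 26.9% of genes had none.

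An additive limma fit over the 4 arrays, with terms for population and transduction, set these effects against the spread left between arrays. With 1 residual degree of freedom for each gene, its p-values rest largely on a spread borrowed from all genes. That degree of freedom is the difference between the CreER differences of the populations. In this spread, noise between arrays and a CreER response that differs between the populations cannot be told apart. For population, 6.27% of genes were called, and among the 6 members fitted these were Cdkn2b and Cdkn2c. Cdkn2b was higher in LT-HSC-derived cells by 0.65 ± 0.10 (SE, 4 arrays), with a 95% interval of 0.40 to 0.90 and a limma adjusted p of 0.028. Cdkn2b entered this fit through the LT-HSC arrays alone, where it is the higher, so its call is a description and its effect is of uncertain size. Cdkn2c was lower, with an effect of -0.51 ± 0.09 (SE), an interval of -0.75 to -0.28 and a limma adjusted p of 0.044. Both calls were lost after cyclic loess normalization, with a limma adjusted p of 0.0532 for Cdkn2b and 0.0652 for Cdkn2c. After quantile normalization Cdkn2b kept its call (limma adjusted p of 0.0371) and Cdkn2c lost it (0.0566). Cdkn2c also lost it (0.0502) when every gene was taken as the mean of its probe sets. Cdkn2c has no second probe set, so its effect was unchanged there and only its adjusted p moved. Over all the alternatives in which each was fitted, the limma adjusted p ran from 0.0179 to 0.0532 for Cdkn2b and from 0.036 to 0.0652 for Cdkn2c.

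Population effects of the other members did not pass. Cdkn1b had an effect of -0.35 ± 0.09 (SE) with a limma adjusted p of 0.0931, and Cdkn3 had -0.33 ± 0.09 with a limma adjusted p of 0.108. The value for Cdkn1b depends on the probe set taken. With its probe sets averaged, the effect was -0.48 with a limma adjusted p of 0.056. The intervals for Cdkn1c, -0.16 to 0.32, and Cdkn2d, -0.32 to 0.15, included 0. Cdkn2a was left out by the floor, and when all genes were fitted its effect was 0.50 with a limma adjusted p of 0.0579.

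Markers of some cell types also differed between the populations. The 15 mast cell and basophil markers had mean log2 levels of 9.87 on LT-HSC CreER and 10.38 on LT-HSC mock, against 8.87 on ST-HSC CreER and 8.31 on ST-HSC mock, and 12 and 12 of them were above the floor, against 9 and 6. Limma called 7 of the 12 fitted higher in LT-HSC-derived cells, beside 6.27% of all genes fitted, called in either direction. Among the 7, Cd200r3 and Il4 were under the floor on both ST-HSC arrays. These genes were fitted through the LT-HSC arrays alone, so their calls are descriptions and their effects are of uncertain size. The 8 megakaryocyte and platelet markers had means of 10.25 and 10.16 on the LT-HSC arrays, against 9.10 and 8.88 on the ST-HSC arrays, with 8 and 8 above the floor, against 7 and 7, and 6 of 8 were called higher. Of those called, Gp5 was likewise under the floor on both ST-HSC arrays. The 6 eosinophil markers had means of 10.26 and 10.11 on LT-HSC CreER and LT-HSC mock, against 9.84 on ST-HSC CreER and 8.99 on ST-HSC mock, and 1 of 4 fitted was called higher. The 9 myeloid progenitor and primary granule markers had means of 12.56 on LT-HSC CreER and 11.91 on LT-HSC mock, and 12.26 on ST-HSC CreER and 12.17 on ST-HSC mock, with 1 of 9 called higher. The 14 monocyte and macrophage markers had means of 10.16 on LT-HSC CreER and 10.78 on LT-HSC mock, and 10.42 on ST-HSC CreER and 10.76 on ST-HSC mock. Of the monocyte and macrophage markers 0 of 11 fitted were called for population, and for CreER against mock 10 of 11 past the floor were below 0 among LT-HSC-derived cells and 11 of 11 among ST-HSC-derived cells. For LT-HSC against ST-HSC, 11 of 11 neutrophil markers were below 0 with CreER (median -0.27) and 7 of 11 with mock (median -0.14). Of the dendritic cell and MHC class II markers past the floor, 5 of 6 were below 0 with CreER (median -0.48) and 3 of 6 with mock (median 0.10). Limma called 0 of 11 neutrophil and 0 of 6 dendritic cell and MHC class II markers for population. The part of these cell types in the differences of Cdkn1b, Cdkn2b, Cdkn2c and Cdkn3 was not tested.

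For transduction, limma called 0 of the 6 members and 0 of 10411 genes (0%), with 1048 genes at an unadjusted p under 0.05. The CreER effects of Cdkn3 (0.26 ± 0.09, SE), Cdkn2d (0.25 ± 0.09) and Cdkn2c (0.24 ± 0.09) were the highest of the 6, with limma adjusted p of 0.458, 0.464 and 0.481. Their 95% intervals ran over 0.02 to 0.49, 0.02 to 0.49 and 0.01 to 0.48, without adjustment for the number of genes. Cdkn1b had 0.19, Cdkn1c 0.04 and Cdkn2b -0.11. The plot of fitted effects places Cdkn1b, Cdkn2c and Cdkn3 together, lower in LT-HSC-derived cells and higher with CreER, and Cdkn2b apart from them.

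**Figure D3:**
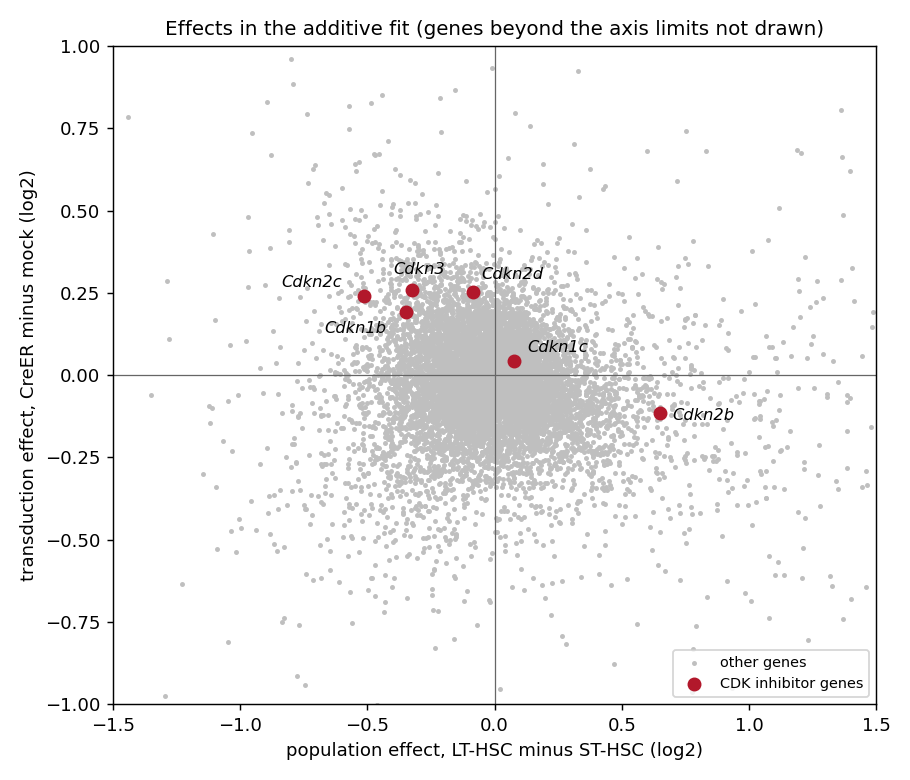
Effects of the additive fit on the log2 scale for genes past the signal floor: the LT-HSC minus ST-HSC effect (x axis) against the CreER minus mock effect (y axis), with the 6 fitted members in red and other genes in grey. Cdkn2b lies at 0.65 on the x axis, and Cdkn2c, Cdkn1b and Cdkn3 lie at -0.51, -0.35 and -0.33.

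Among the partners and targets of the inhibitors, Ccnd2, the cyclin D2 gene, was higher in LT-HSC-derived cells. Its log2 levels were 11.94 on LT-HSC CreER and 11.92 on LT-HSC mock, against 10.93 on ST-HSC CreER and 10.97 on ST-HSC mock, a limma effect of 0.98 with an adjusted p of 0.00969. It was the gene called of 17 fitted in the list of cyclins, CDKs and CDK-phosphorylating or CDK-activating enzymes, with 0 called lower (6.27% of all genes, either direction). The cyclin D1 and D3 genes Ccnd1 and Ccnd3 had population effects of -0.35 and -0.11, and the INK4 targets Cdk4 and Cdk6 had 0.27 and 0.30, none of which passed. Limma called 0 of 13 RB and E2F family genes and 0 of 24 DNA replication and mitosis genes, whose population effects had medians of 0.01 and -0.06. With each array centred on its median these were -0.04 and -0.11. For the DNA replication and mitosis genes the fitted median averages LT-HSC minus ST-HSC differences of opposite sign. Their median was 0.07 with CreER, with 16 of 24 above 0, and -0.23 with mock, with 22 of 24 below 0. The proliferation marker Mki67 had log2 levels of 12.74 on LT-HSC CreER and 12.40 on LT-HSC mock, and 12.63 on ST-HSC CreER and 12.64 on ST-HSC mock.

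The DNA replication and mitosis genes, which dividing cells express, were set beside the fitted members in the CreER comparisons. For CreER against mock the median of the list was 0.34 in LT-HSC-derived cells, with 24 of 24 genes above 0, and it was 0.02 in ST-HSC-derived cells, with 14 of 24 above 0. Cdkn1b, Cdkn2c and Cdkn3 had CreER differences of 0.21, 0.22 and 0.24 in LT-HSC-derived cells and of 0.17, 0.26 and 0.28 in ST-HSC-derived cells. In the same order of populations, Cdkn2d had 0.25 and 0.26, and Cdkn1c had 0.10 and -0.01. Cdkn2b had -0.19 and -0.04, the latter between arrays under the floor. The difference between these CreER differences has no test with 1 array per group.

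Of the p53 pathway, 4 of 18 fitted genes were called higher in LT-HSC-derived cells and 0 lower (6.27% of all genes, either direction). They were Perp, a membrane protein gene of apoptosis, with a limma effect of 2.37 (adjusted p of 0.00609), the stress gene Gadd45a with 2.07 (0.00761), the kinase gene Plk2 with 1.52 (0.00421) and the stress sensor gene Sesn2 with 1.11 (0.0305). Perp was under the floor on both ST-HSC arrays, at 7.99 with CreER and 7.59 with mock, so it was fitted through the LT-HSC arrays alone and the size of its effect is uncertain. Mdm2, which encodes the ubiquitin ligase of p53 and is itself a p53 target, had log2 levels of 10.71 on LT-HSC CreER and 10.72 on LT-HSC mock, and 10.74 on ST-HSC CreER and 10.78 on ST-HSC mock. The shared Cdkn1a probe set had differences between the populations of -0.24 with CreER and 0.06 with mock. After cyclic loess 3 of the 18 genes were called. The median population effect of the list was 0.10. Of its genes past the floor, 14 of 18 were above 0 for LT-HSC against ST-HSC with mock and 8 of 17 with CreER.

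Genes that act on the inhibitors were also followed. Of 16 Polycomb, MLL and menin genes limma called 0 for population or CreER. Bmi1, the Polycomb repressor of the Cdkn2a locus, had log2 levels of 8.71 on LT-HSC CreER and 9.14 on LT-HSC mock, and 8.89 on ST-HSC CreER and 9.12 on ST-HSC mock, so CreER differed from mock by -0.42 and -0.23. Kmt2a (MLL) and Men1 (menin), which maintain Cdkn1b and Cdkn2c transcription in mouse endocrine cells, had population effects of 0.08 and -0.18. Of 21 transcriptional regulators, 3 were called higher in LT-HSC-derived cells, namely Egr1 (1.19, limma adjusted p of 0.0112), Gfi1b (1.16, 0.0072) and Myc (0.58, 0.031), whose protein represses Cdkn1a and Cdkn2b. Ets1 was called lower (-0.50, limma adjusted p of 0.0461), a call that was lost after quantile normalization and cyclic loess. Over all genes fitted, 6.27% were called for population. Of 12 genes for ubiquitin-mediated turnover of p21, p27 and p57, 0 were called, and Skp2, which targets p27 for degradation, had a population effect of -0.34.

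Imprinted genes were set beside Cdkn1c, which lies in the imprinted Kcnq1 domain. Of its domain, Phlda2 was higher in LT-HSC-derived than in ST-HSC-derived cells by 1.10 with mock and by 0.45 with CreER, with a limma effect of 0.77 that did not pass (adjusted p of 0.0643). Phlda2 was above the floor on LT-HSC mock alone, so both arrays of its CreER difference are under the floor. Slc22a18 had an effect of -0.37, and Kcnq1 and Ascl2 were under the floor on every array. Of 8 imprinted genes fitted, Grb10 (1.90, limma adjusted p of 0.0114) and Peg10 (0.76, 0.0182) were called higher, beside 6.27% of all genes called in either direction. Grb10 was above the floor on the LT-HSC arrays alone and Peg10 on LT-HSC CreER alone, so both were fitted through the group where they are higher and the sizes of their effects are uncertain. Dlk1, a Notch ligand family gene, was the 1 gene of the imprinted list at 2-fold for CreER against mock, by 1.69 in LT-HSC-derived cells. All 4 pairwise differences of Cdkn1c itself were at most 0.14 in size. For transduction limma called 0 genes of each of these lists.

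**Figure D4:**
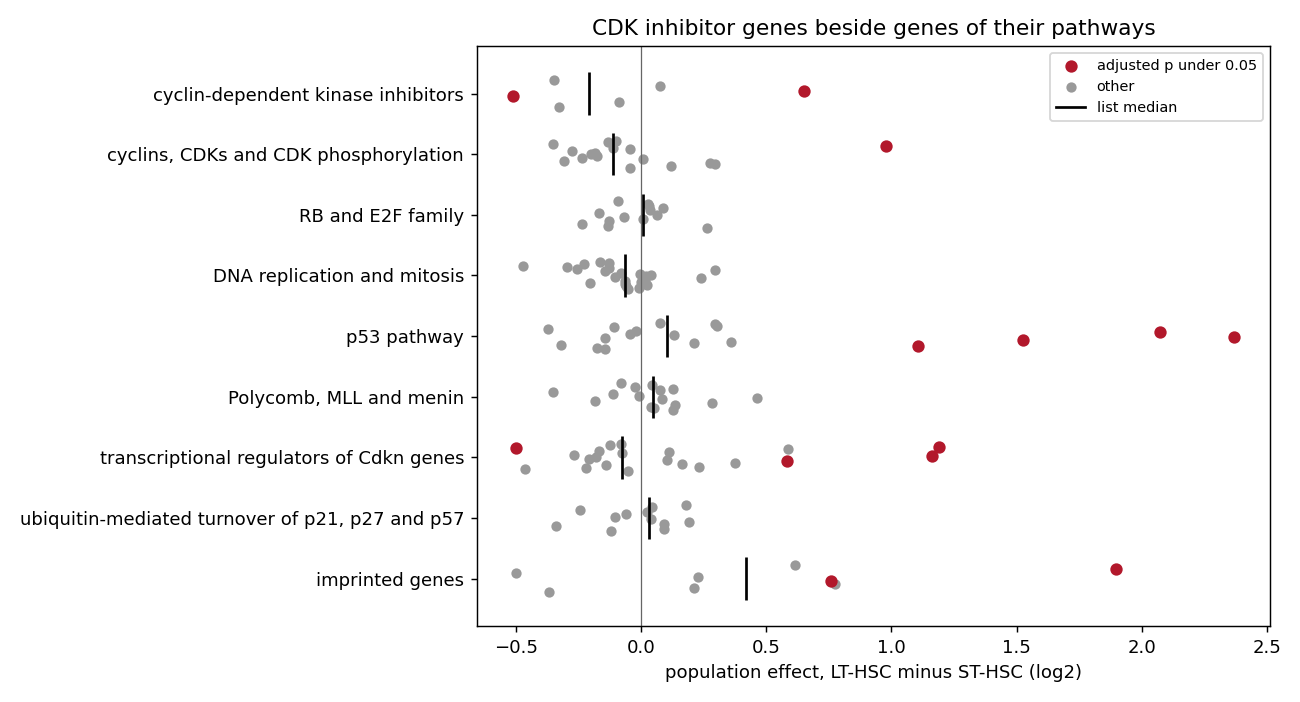
Population effect of the additive fit (x axis, log2, LT-HSC minus ST-HSC) for the inhibitor genes and 8 pathway lists (y axis), 1 point per gene past the signal floor, with list medians as black lines and genes at a limma adjusted p under 0.05 in red. In the inhibitor list, Cdkn2b at 0.65 and Cdkn2c at -0.51 are red on opposite sides of 0.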

How the data were processed

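RNA from colony-forming cells was amplified with a whole-transcript kit, labelled with biotin and hybridised to 1 array per group, per the labels' protocols. The deposited values span 2.21 to 14.82 and were taken to be log2 expression for each probe set. The submitters' processing notes name Affymetrix Expression Console. The sources used here give neither its version nor how values were summarised and normalized. Array summaries can compress differences near background, which was not tested here, so differences of genes under the floor have an uncertain size.

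Of 35556 probe sets, 21789 had 1 gene symbol, 1621 had several and 12146 had none here. A gene was represented by its probe set of 1 symbol with the highest mean over the arrays, which gave 19938 genes. Pairwise log2 differences were counted at 2-fold with the higher array above its median over probe sets with 1 symbol. The additive fit, lmFit with eBayes, was run in limma 3.58.1 under R 4.3.3. Its p-values were adjusted by Benjamini-Hochberg over the 10411 genes that passed the floor on 1 array or more, with a threshold of 0.05. It had 1 residual and 4.27 prior degrees of freedom. The labels do not say that arrays came from separate animals, so its p-values measure only the spread between these arrays. That spread may be technical, or may hold a CreER response that differs between the populations. The steps were tested on simulated data, where effects were recovered and false calls could exceed the threshold. The simulated noise was independent between arrays, and no CreER response differed between the populations. The simulated effects were of at least 1 log2, a size that no member reached. Recovery there therefore does not extend to genes with such a response, or to effects as small as those of the members.

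Members, pathway lists and marker lists were chosen with earlier results of these data known. The rule for named genes took all members on every array, for each pathway list the members at 2-fold or otherwise up to 4 with the largest differences, of which some are given, and a fixed set of regulators. Other list genes are named as the listed genes limma called or as members of a domain or family, chosen after their values were seen. It also asked for the genes most like each member with a range of at least 1 log2, and 0 members reached that range. The lists other than the members held 251 entries. Alternatives were quantile, cyclic loess and median-centring normalization, a floor at the 75th percentile or none, 1.5-fold and 3-fold thresholds, the mean of all probe sets, a trend in the prior and an adjusted p of 0.1. Promoter sequences are RefSeq windows of GRCm38.p6. No gene coordinates of probe sets are given, because the array annotation names no build.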

Additional observations from a re-analysis of the deposited data

Results flagged for a closer look

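Differences of opposite sign under the same contrast were noted for 3 probe sets, and with 1 array per group none of these was tested. The CreER minus mock difference of Cdkn1c was 0.10 for LT-HSC and -0.01 for ST-HSC, which differ by 0.11. That of Cdkn2a, under the floor on all 4 arrays, was 0.27 for LT-HSC and -0.003 for ST-HSC, which differ by 0.28. With each array centred on its median the ST-HSC value is 0.0018, so the signs are then not opposite. The probe set shared by Cdkn1a and 4930567H12Rik had an LT-HSC minus ST-HSC difference of -0.24 with CreER and 0.06 with mock, which differ by -0.30.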

How the results depend on the processing

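No paired analysis was possible because each group holds 1 array and the labels give no replicate numbers. No alternative brought a member to 2-fold. Of 224 pairwise member values 2 moved by more than the residual SD of the additive fit, as limma moderates it with the spread of all genes. Both were those of Cdkn1b between the populations, at -0.46 with CreER and -0.49 with mock when its probe sets were averaged. For Cdkn2a, which was not fitted, the prior SD was used. The floor and threshold settings cannot change a log2 difference, so the values counted under them could not move. Nor could those of members other than Cdkn1b when probe sets were averaged, because these members have no second probe set of their own. With each array centred on its median, the sign of Cdkn1c turned for LT-HSC against ST-HSC with mock (-0.014) and that of Cdkn2a for ST-HSC CreER against ST-HSC mock (0.0018). Of 90 fitted member values 0 changed sign, 4 lost the call and 1 gained it. The floor settings, the trend in the prior and the adjusted p of 0.1 leave the fitted effects unchanged, so no sign could change under them. The mean of all probe sets likewise leaves the fitted effects of members other than Cdkn1b unchanged. Cdkn2c lost the call after quantile normalization and after cyclic loess, and Cdkn2b lost it after cyclic loess. With genes taken as the mean of their probe sets, Cdkn2c also lost the call, at a limma adjusted p of 0.0502, though its effect was unchanged. Cdkn1b gained it at an adjusted p of 0.1. Under the floor at the 75th percentile, Cdkn1c, Cdkn2b and Cdkn2c were not fitted. The count of genes called for population was 653, against 368 after cyclic loess, 186 with the floor at the 75th percentile and 1401 at an adjusted p of 0.1.

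The number of genes counted in a comparison moved with the floor and the threshold, by construction. For LT-HSC CreER against LT-HSC mock, 89 genes became 53 (5 higher, 48 lower) with the floor at the 75th percentile, 417 (104 higher, 313 lower) at 1.5-fold and 12 (2 higher, 10 lower) at 3-fold. For ST-HSC CreER against ST-HSC mock, 52 genes (8 lower) became 200 (143 higher, 57 lower) at 1.5-fold and 7 (7 higher, 0 lower) at 3-fold, and 3 were lower at the raised floor. For LT-HSC against ST-HSC with mock, 319 genes became 169 (150 higher, 19 lower) at the raised floor, 825 (558 higher, 267 lower), among them 1 member, at 1.5-fold, and 143 (132 higher, 11 lower) at 3-fold. With CreER, 198 genes became 93 (66 higher, 27 lower) at the raised floor, 697 (369 higher, 328 lower) at 1.5-fold and 67 (62 higher, 5 lower) at 3-fold. Leaving out an array would leave no residual degree of freedom, so no such fit was made. Signal near the floor limits what can be said of Cdkn1c, Cdkn2a and Cdkn2b.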
